A study of Homo sapiens with 12 samples.

Results

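MiR-320a, miR-320b, miR-320c, miR-320d, miR-320e, miR-484, both arms of miR-877 and the 3p arm of miR-1226 are miRNAs that are held to mature without the nuclease DROSHA. They were taken by name from the deposited count lists and make up 9 of the 1733 miRNAs counted in at least 1 library. The libraries were small RNA libraries of AsPC-1 and PANC-1, 2 cell lines of human pancreatic ductal adenocarcinoma (PDAC), each with 3 control and 3 MYEOV-knockdown libraries. MYEOV, a gene overexpressed in several tumours, was silenced with siRNA (siMYEOV, Stealth RNAi, transfected with a lipid reagent), so the knockdown was transient and each line is a single cancer line. The methods name a pair of siRNAs, and the labels do not say which of them each knockdown library received, so the spread among the knockdown libraries may include a difference between siRNAs. The control libraries are labelled WT and without treatment, whereas the methods name a negative-control siRNA (siNC), and the labels give 48 h before harvest for all 12 libraries. AsPC-1 was grown in RPMI 1640 and PANC-1 in DMEM, so line and medium cannot be told apart.

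Most miRNAs start as a long hairpin transcript that DROSHA and DGCR8 cut in the nucleus and DICER1 cuts again in the cytoplasm. A few classes skip the first cut. The precursors of miR-320a and miR-484 are made directly as short, capped RNA polymerase II transcripts, leave the nucleus with exportin 1 (XPO1) and are cut by DICER1. Mirtrons, such as miR-877 and miR-1226, are short introns that the spliceosome releases, that are debranched and fold into a hairpin for DICER1. Neither DROSHA nor DICER1 was perturbed here, so the route of maturation rests on earlier knowledge and was not tested.

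The mature sequences are shown because the miR-320 paralogs differ by so few bases, and because the sequence of a mirtron arm carries the end of its intron. Of the 9 miRNAs, 8 were matched to human RefSeq mature sequences (GRCh38.p14), and miR-320a is named only. Capitals mark the seed, bases 2 to 8 from the 5′ end, which pairs with target mRNAs.
miR-320b: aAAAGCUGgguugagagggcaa
miR-320c: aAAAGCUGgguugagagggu
miR-320d: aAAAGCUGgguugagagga
miR-320e: aAAGCUGGguugagaagg
miR-484: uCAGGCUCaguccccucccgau
miR-877-5p: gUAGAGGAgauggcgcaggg
miR-877-3p: uCCUCUUCucccuccucccag
miR-1226-3p: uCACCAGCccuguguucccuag

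MiR-320b, miR-320c and miR-320d share the seed AAAGCUG and differ at the 3′ end alone. MiR-320b and miR-320c have their first 19 bases in common, and miR-320d shares 18 bases with each. MiR-320e starts 1 base later, so that its seed is AAGCUGG, and shares 15 bases with the others from there. The authors kept reads of 18 to 28 bases, so a short read can match more than 1 paralog, and how such reads were divided is not given in the sources used here. The separate values of miR-320b, miR-320c, miR-320d and miR-320e are uncertain for that reason. The same limit holds for miR-320a, their paralog, and for each ratio or share set against it. Among the other miRNAs listed, miR-4429 has the seed of miR-320b and reached at most 2 counts in a library. MiR-3155a has the seed of miR-484 and reached at most 11 counts in a library.

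The genes of the paralogs are scattered over the genome (coordinates in GRCh37, the build of the deposited counts, with GENCODE annotation). MiR-320b has 2 hairpins, MIR320B1 at chr1:117214371-117214449 (plus strand), outside any annotated gene, and MIR320B2 at chr1:224444706-224444843 (minus strand), in an intron of NVL. The hairpins of miR-320c lie in introns of ABHD3 and OSBPL1A on the strand opposite to these genes, MIR320C1 at chr18:19263471-19263558 and MIR320C2 at chr18:21901650-21901699 (both plus strand). Those of miR-320d overlap no gene, MIR320D1 at chr13:41301964-41302011 and MIR320D2 at chrX:140008337-140008384 (both minus strand). MIR320E is at chr19:47212550-47212602 (minus strand), in an intron of PRKD2. The hairpin of miR-484 stands at chr16:15737151-15737229 (plus strand), in an exon of NDE1, a regulator of dynein, and begins 27 bases downstream of an annotated start of that gene. In contrast, the hairpins of miR-320b to miR-320e lie 4678 (MIR320E) to 141853 bases (MIR320D2) from the nearest annotated transcript start on their strand.

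Each mirtron hairpin is an intron from its first base to its last. MIR877, 86 bases at chr6:30552109-30552194 (plus strand), is intron 13 of ABCF1, which codes for a translation factor of the ABC family. MIR1226, 75 bases at chr3:47891045-47891119 (plus strand), is intron 21 of DHX30, which codes for an RNA helicase. The introns are numbered in the first annotated transcript of each gene, and 4 transcripts of ABCF1 and 6 of DHX30 have the same intron. Capitals mark the bases at the splice sites, GU at the 5′ end and AG at the 3′ end.
MIR877: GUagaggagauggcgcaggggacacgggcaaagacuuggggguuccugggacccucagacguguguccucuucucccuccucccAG
MIR1226: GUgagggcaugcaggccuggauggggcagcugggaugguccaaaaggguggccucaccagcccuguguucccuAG
MiR-877-5p is bases 1 to 20 of its hairpin and miR-877-3p is bases 66 to 86, so the arms begin and end at the splice sites. MiR-1226-3p is bases 54 to 75 and likewise ends with the AG. Of the 21 bases of miR-877-3p, 19 are pyrimidines, since the arm holds the pyrimidine-rich stretch that precedes a 3′ splice site.

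Total counts ranged from 3805084 to 7311783 per library, and a count of 3, the limit used for a miRNA at 0, equals 0.410 to 0.788 CPM, counts scaled to a library of 1000000 reads. This limit covers counting error only. The AsPC-1 control library 1 stood apart from the other AsPC-1 control libraries, with a chi-square per degree of freedom of 224 and 183 against them, compared with 22.1 between those. Without it the calls between the lines were the same 6, with the LFC of miR-320d at 3.44 in place of 3.66. The epithelial miR-200 group, 5 rows, summed to 48678 to 52667 CPM in the AsPC-1 controls and to 249.9 to 276 CPM in the PANC-1 controls. Summed markers of other cell types were low in every library, with at most 0.509 CPM for acinar cells, 2.02 for leukocytes, 5.01 for erythroid cells, 4.46 for muscle, 10.8 for hepatocytes and 0.788 for neurons. These levels are as high as those of the scarcest miRNAs described here. The islet marker miR-375 was at 10.3 to 12.1 CPM in the PANC-1 controls and at 5.54 to 8.65 CPM after knockdown, and at most at 2.19 CPM in AsPC-1. The hepatocyte marker miR-122-5p was at 2.38 to 3.42 CPM in the PANC-1 controls and at 3.56 to 5.27 CPM after knockdown. The part of either in the PANC-1 results was not tested. MYEOV mRNA is not measured by these libraries, so the knockdown could not be checked here. The labels do not say whether replicates are separate cultures, and p-values then measure only the spread between these libraries.

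First, the levels in the 2 lines were compared in the control libraries. The 9 miRNAs took 0.423% to 0.466% of the reads of the AsPC-1 controls and 0.147% to 0.171% of those of the PANC-1 controls. MiR-320a to miR-320d and miR-484 were higher in AsPC-1, and miR-877-5p was lower. MiR-320a was the most abundant in AsPC-1 (rank 51 of 1319 miRNAs with a count, by mean level), and miR-484 was the most abundant in PANC-1 (rank 85 of 1374). Values are CPM scaled with edgeR's TMM factors over the 6 control libraries, and the fold change is on the log2 scale (LFC).

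MiR-320a, the most studied member of its family, stood at 2759, 2598 and 2581 CPM in the AsPC-1 controls and at 422, 415 and 418 CPM in the PANC-1 controls. Every AsPC-1 library was above every PANC-1 library, and the difference was 6.32-fold (LFC 2.66, SE 0.09, edgeR adjusted p = 1.17e-12). MiR-320b was at 236.0, 219.2 and 205.2 CPM in AsPC-1 and at 19.6, 21.8 and 26.0 CPM in PANC-1, a 9.83-fold difference (LFC 3.30, SE 0.13, edgeR adjusted p = 4.83e-12). The next paralogs were higher in AsPC-1 by a similar factor, without overlap between the lines. MiR-320c was at 97.0, 93.7 and 86.1 CPM in AsPC-1 and at 5.71, 7.93 and 10.2 CPM in PANC-1 (LFC 3.55, SE 0.18, edgeR adjusted p = 7.44e-11). MiR-320d was at 40.1, 24.9 and 26.3 CPM in AsPC-1 and at 2.45, 2.29 and 2.43 CPM in PANC-1 (LFC 3.66, SE 0.27, edgeR adjusted p = 7.05e-09).

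MiR-320e, the shortest of the paralogs, had 20, 22 and 10 counts in the AsPC-1 controls and 2, 3 and 2 counts in the PANC-1 controls. The groups did not overlap. It did not reach the count minimum, and with every miRNA kept its edgeR adjusted p was 3.25e-06 over 1603 miRNAs. The PANC-1 counts are at or under the limit of 3, so no fold is given.

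The interval of the LFC of miR-320a, 2.46 to 2.86, lay below those of miR-320b, 3.01 to 3.58, and of miR-320c, 3.17 to 3.93. The ratios between the paralogs also lay apart in the lines. For every 100 counts of miR-320a, AsPC-1 controls had 8.31 ± 0.320 of miR-320b (SD, n = 3) and PANC-1 controls had 5.37 ± 0.799. The paralogs other than miR-320a held 12.01%, 11.62% and 11.00% of all miR-320 counts in the AsPC-1 controls. The PANC-1 controls had 6.24%, 7.29% and 8.56%, all below the AsPC-1 values. These shares do not depend on the scaling of the libraries, and no test was run on them.

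MiR-484, a regulator of the mitochondrial fission protein FIS1, stood at 1972, 2073 and 1895 CPM in the AsPC-1 controls and at 917, 1058 and 889 CPM in the PANC-1 controls. The lines did not overlap, and the difference was 2.07-fold (LFC 1.05, SE 0.10, edgeR adjusted p = 1.55e-07). The order of the 2 most abundant members was thus turned between the lines. AsPC-1 controls had 71.5, 79.8 and 73.4 counts of miR-484 per 100 of miR-320a, and PANC-1 controls had 217.13, 255.23 and 212.79.

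The mirtron arms were scarce in both lines. MiR-877-5p was at 6.29, 3.51 and 5.75 CPM in the AsPC-1 controls and at 12.8, 11.8 and 9.72 CPM in the PANC-1 controls, without overlap. It was 2.22-fold lower in AsPC-1 (LFC -1.15, SE 0.24, edgeR adjusted p = 0.00048). The difference between the arms was not tested. MiR-877-3p averaged 4.04 ± 1.30 CPM (SD, n = 3) in AsPC-1 and 3.50 ± 0.457 CPM in PANC-1 (LFC 0.21, 95% interval -0.44 to 0.86, edgeR adjusted p = 0.524), and its LFC ranged from 0.08 to 0.46 when any 1 library was left out. MiR-1226-3p averaged 3.07 ± 1.00 CPM in AsPC-1 and 2.06 ± 0.263 CPM in PANC-1 (LFC 0.58, 95% interval -0.15 to 1.31, edgeR adjusted p = 0.128). For both, the libraries of the lines overlapped. Without the AsPC-1 control library 2, miR-1226-3p had an LFC of 0.83 (edgeR adjusted p = 0.0319).

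**Figure D1:**
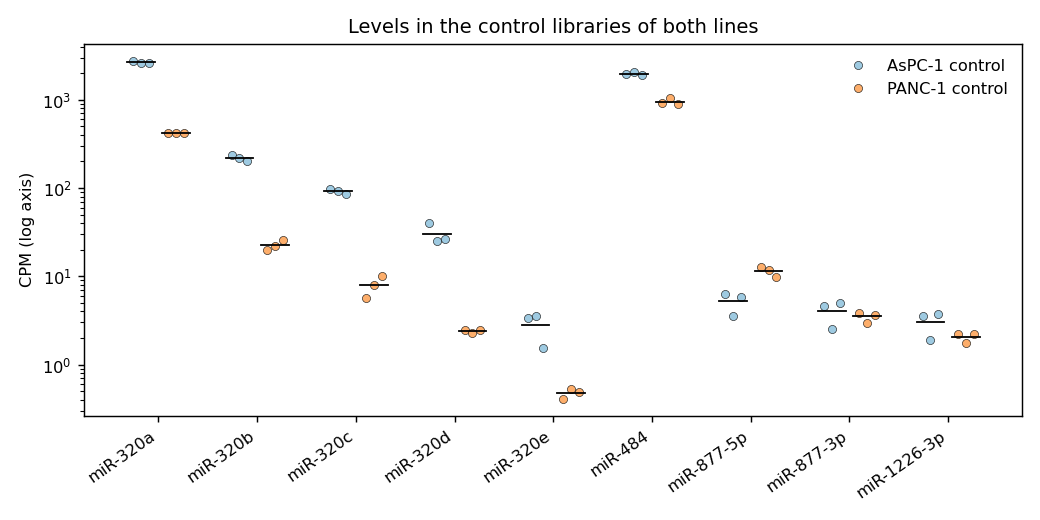
CPM of the 9 miRNAs in the 3 AsPC-1 and the 3 PANC-1 control libraries on a log axis (points: libraries, bars: means, TMM scaling over the controls). MiR-320a to miR-320e and miR-484 lie higher in AsPC-1, miR-877-5p lies lower at 5.18 against 11.5 CPM, and the points of miR-877-3p and miR-1226-3p overlap.

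Differences of this kind were common between the lines. Of 627 miRNAs tested, 519 passed the threshold of adjusted p under 0.05 (82.8%), 226 of them higher (36.0%) and 293 lower in AsPC-1 (46.7%). That split depended on the scaling, being 345 higher and 200 lower with upper-quartile factors and 174 higher and 335 lower with total counts. The lines did not overlap for 515 (82.1%). Of the 9 miRNAs, 8 were tested and 6 passed, 5 higher and 1 lower, and the same number did not overlap, a share near that of all miRNAs. Their median LFC was 1.86, compared with -0.27 over all miRNAs tested. By size of the LFC, miR-320d, miR-320c, miR-320b and miR-320a were at ranks 45, 46, 48 and 56 of the 226 that were higher, and miR-484 was at rank 150.

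The mirtron arms depended on the scaling of the libraries. Upper-quartile factors moved the median LFC of all miRNAs by 0.92 and total counts moved it by -0.34. With upper-quartile factors miR-877-5p no longer passed (LFC -0.23, edgeR adjusted p = 0.365), while miR-877-3p (LFC 1.13, adjusted p = 0.00229) and miR-1226-3p (LFC 1.49, adjusted p = 0.000589) did. MiR-320a to miR-320d and miR-484 passed with every scaling tried, but the size of their difference moved. The LFC of miR-320a was 2.32 with total counts and 3.58 with upper-quartile factors, and that of miR-484 was 0.71 and 1.97. In the knockdown libraries of both lines, miR-320a was 6.74-fold, miR-320b 12.7-fold, miR-320c 14.3-fold, miR-320d 16.0-fold and miR-484 2.01-fold higher in AsPC-1. MiR-877-5p did not pass there (LFC -0.27, SE 0.25, edgeR adjusted p = 0.307).

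Next, the change after MYEOV knockdown was examined in AsPC-1, with CPM scaled over the 6 AsPC-1 libraries. None of the 9 miRNAs passed the threshold in edgeR and 1 did in DESeq2's Wald test, while in edgeR 57 of the 498 miRNAs tested did (11.4%). At an unadjusted p under 0.05, 4 of the 9 and 123 of all passed. In these 4, miR-320b, miR-320c, miR-484 and miR-877-3p, control and knockdown libraries did not overlap, compared with 152 of all miRNAs (30.5%). The knockdown libraries were higher without overlap for 2 of the 9 and for 84 of the 498 (16.9%), and lower without overlap for 2 of the 9 and for 68 of the 498 (13.7%). With an adjusted p under 0.1, a limit added after the data were seen, these 4 passed, as did 90 of all miRNAs (18.1%). The median absolute LFC was 0.27 over the 9 and 0.19 over all. Since whole cultures were sequenced, fewer cells with a miRNA and less of it per cell cannot be told apart.

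MiR-320a was at 2401, 2305 and 2323 CPM in the AsPC-1 controls and at 2203, 2164 and 2308 CPM after knockdown. The groups overlapped, and the LFC was -0.07 (95% interval -0.23 to 0.08, edgeR adjusted p = 0.555). The values of miR-320b and miR-320c were higher after knockdown but did not pass. MiR-320b was at 205.3, 194.5 and 184.7 CPM in the controls and at 233.0, 223.7 and 247.6 CPM after knockdown, with every knockdown library above every control (LFC 0.27, SE 0.09, edgeR adjusted p = 0.0586). MiR-320c was at 84.4, 83.2 and 77.5 CPM and then at 107, 89.2 and 111 CPM, also without overlap (LFC 0.33, SE 0.11, edgeR adjusted p = 0.0586). MiR-320d was at 34.9, 22.1 and 23.6 CPM in the controls and at 32.2, 32.3 and 34.9 CPM after knockdown, so that control library 1 was level with the highest knockdown library (LFC 0.30, SE 0.16, edgeR adjusted p = 0.269). MiR-320e, with 8 to 22 counts per library, had an LFC of -0.07 (SE 0.39, edgeR adjusted p = 0.921).

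The calls in AsPC-1 depended on the libraries and on the settings. Without control library 1, miR-320b (LFC 0.32, edgeR adjusted p = 0.00328), miR-320c (LFC 0.36, adjusted p = 0.00809) and miR-320d (LFC 0.54, adjusted p = 0.00178) passed the threshold upward. MiR-484 passed downward (LFC -0.26, adjusted p = 0.00409). In that setting 102 of 505 miRNAs passed in all, or 20.2%. The LFC without it was -0.05 for miR-320a, 0.08 for miR-320e, 0.43 for miR-877-5p and -0.12 for miR-1226-3p, none of which passed. Scaled over all 12 libraries, the summed miR-320 level then changed by -0.07 in place of -0.13 on the log2 scale. Without control library 2, in contrast, the LFC of miR-320d was 0.17 (edgeR adjusted p = 0.551). With all libraries kept, miR-320b and miR-320c passed with upper-quartile factors (LFC 0.28 and 0.34, edgeR adjusted p = 0.0468 and 0.0470) and when at least 10 counts were asked of every library (LFC 0.28 and 0.34, adjusted p = 0.0385 and 0.0478). Without knockdown library 2, miR-320c passed (LFC 0.42, edgeR adjusted p = 0.0332).

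The shares of the paralogs in the miR-320 counts need no scaling. MiR-320b to miR-320e together held 12.01%, 11.62% and 11.00% of the miR-320 counts in the AsPC-1 controls and 14.5%, 13.9% and 14.6% after knockdown. All knockdown values were above all control values, and the difference was 2.80 percentage points, or 2.53 to 3.04 when any 1 library was left out. Per 100 counts of miR-320a there were 8.55, 8.44 and 7.95 of miR-320b in the controls and 10.6, 10.3 and 10.7 after knockdown. MiR-320c had 3.52, 3.61 and 3.33 and then 4.86, 4.12 and 4.81. MiR-320d had 1.45, 0.958 and 1.02 and then 1.46, 1.49 and 1.51, with control library 1 close to the knockdown values. The summed miR-320 level was 3120 ± 228 CPM in the controls and 2853 ± 192 CPM after knockdown (SD, n = 3, scaled over all 12 libraries), and the groups overlapped. Scaled by total counts the means lay closer, at 2663 ± 167 and 2586 ± 82.1 CPM, also with overlap. No test was run on these shares and sums, which were compared with results of these data known.

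MiR-484 was at 1716, 1840 and 1706 CPM in the AsPC-1 controls and at 1460, 1365 and 1599 CPM after knockdown. Every knockdown library was below every control (LFC -0.25, SE 0.08, edgeR adjusted p = 0.0612). It did not pass with upper-quartile factors (edgeR adjusted p = 0.0738) or with the replicate block (adjusted p = 0.173). Nor did it when any 1 library other than control library 1 was left out (edgeR adjusted p = 0.0803 to 0.292). It passed in DESeq2's Wald test (LFC -0.27, adjusted p = 0.0301), with total counts in edgeR (LFC -0.26, adjusted p = 0.0483) and in 1 edgeR fit over 12 libraries (LFC -0.35, adjusted p = 0.0154). That fit moved the median LFC of all miRNAs in AsPC-1 by -0.10 and turned the calls from 35 higher and 22 lower to 25 higher and 45 lower. In it miR-320b had an LFC of 0.17 (edgeR adjusted p = 0.339) and miR-320c of 0.22 (adjusted p = 0.266).

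Of the 2 arms of miR-877, the 3p arm had the lower values after knockdown. MiR-877-3p had 27, 16 and 32 counts in the AsPC-1 controls and 10, 6 and 11 after knockdown, or 3.99, 2.26 and 4.47 CPM and then 1.72, 1.00 and 1.99 CPM. The groups did not overlap, and the LFC was -1.18 (SE 0.38, edgeR adjusted p = 0.0586). Without control library 2 it passed (LFC -1.44, edgeR adjusted p = 0.0286), and it passed as well with every miRNA kept in the test (LFC -1.19, adjusted p = 0.0239) and in 1 fit over 12 libraries (LFC -1.29, adjusted p = 0.0159). Without control library 1 it did not pass (LFC -1.09, edgeR adjusted p = 0.0686), nor without control library 3 (LFC -0.98, adjusted p = 0.191). The same held without any 1 knockdown library (edgeR adjusted p = 0.0887 to 0.221) and in DESeq2's Wald test (LFC -1.21, adjusted p = 0.123). MiR-877-5p was at 5.47, 3.11 and 5.17 CPM and then at 3.62, 5.02 and 8.13 CPM, with overlap (LFC 0.28, 95% interval -0.39 to 0.95, edgeR adjusted p = 0.599). Its summed counts were 96 in the controls and 96 after knockdown, whereas those of the 3p arm were 75 and 27.

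The 5p arm accordingly made up 57.8%, 57.9% and 53.6% of the miR-877 counts in the AsPC-1 controls and 67.7%, 83.3% and 80.4% after knockdown. The groups did not overlap, with or without control library 1, but each share rests on 31 to 69 counts of both arms together. MiR-1226-3p averaged 2.72 ± 0.893 CPM in the controls and 2.32 ± 1.04 CPM after knockdown (LFC -0.23, 95% interval -1.07 to 0.61, edgeR adjusted p = 0.778).

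**Figure D2:**
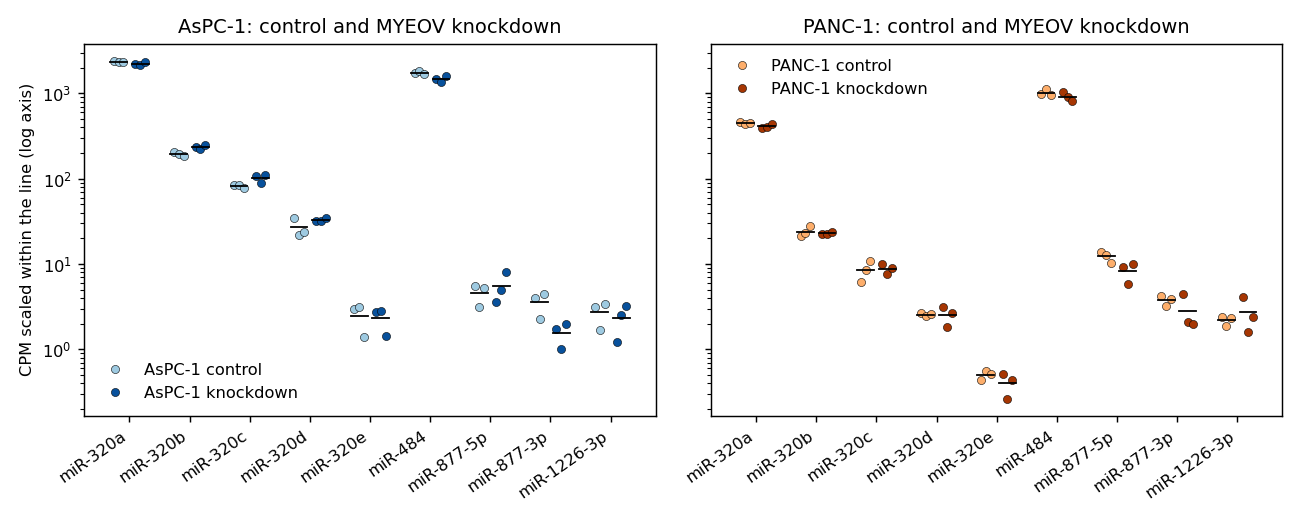
CPM of the 9 miRNAs in control and knockdown libraries of AsPC-1 (left) and PANC-1 (right) on a log axis, scaled within each line (points: libraries, bars: means). In AsPC-1, miR-320b and miR-320c lie above and miR-484 and miR-877-3p below the controls after knockdown, and in PANC-1 miR-320a and miR-877-5p lie below the controls.

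The same comparison was made in PANC-1, with CPM scaled over the 6 PANC-1 libraries. None of the 9 miRNAs passed in DESeq2, which gave no adjusted p for miR-320d and miR-877-3p. In edgeR 7 of the 9 were tested and none passed, while 121 of 551 miRNAs did (22.0%). The count over all miRNAs was 55 of 572 without knockdown library 3 and 68 of 569 without knockdown library 2. At an unadjusted p under 0.05, 1 of the 7, miR-877-5p, and 197 of all passed. The groups did not overlap for 2 of the 7, against 202 of all miRNAs (36.7%). The knockdown libraries were lower without overlap for 2 of the 7 and for 94 of the 551 (17.1%), and higher without overlap for 0 of the 7 and for 108 of the 551 (19.6%). With an adjusted p under 0.1, miR-877-5p alone of the 7 passed, against 164 of all miRNAs (29.8%). The median absolute LFC was 0.12 over the 7 and 0.22 over all.

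MiR-320a was at 456, 442 and 445 CPM in the PANC-1 controls and at 393, 398 and 439.7 CPM after knockdown. The groups did not overlap, though knockdown library 3 lay close to the controls (LFC -0.12, 95% interval -0.30 to 0.05, edgeR adjusted p = 0.300). The libraries of the paralogs overlapped. MiR-320b averaged 24.0 ± 3.34 CPM in the controls and 22.9 ± 0.633 CPM after knockdown (LFC -0.06, 95% interval -0.38 to 0.25). MiR-320c averaged 8.49 ± 2.35 and 8.85 ± 1.14 CPM (LFC 0.08, 95% interval -0.41 to 0.56). MiR-320d averaged 2.56 ± 0.103 and 2.54 ± 0.648 CPM, and its interval of -0.75 to 0.74 spans changes that the counts of 7 to 13 per library cannot resolve. MiR-320e had 1 to 3 counts per library, at or under the limit of 3, and with every miRNA kept its edgeR adjusted p was 0.906.

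The share of miR-320b to miR-320e in the miR-320 counts was 6.24%, 7.29% and 8.56% in the PANC-1 controls and 8.36%, 7.51% and 7.51% after knockdown. The groups overlapped, and the difference of 0.43 percentage points ranged from -0.13 to 1.03 when any 1 library was left out. The summed miR-320 level was 426 ± 4.26 CPM in the controls and 392 ± 20.7 CPM after knockdown (SD, n = 3, scaled over all 12 libraries), so the knockdown libraries lay below without overlap, as they did with total counts. MiR-484 was at 989.6, 1128 and 947 CPM in the controls and at 1025, 899 and 816 CPM after knockdown, with overlap (LFC -0.16, 95% interval -0.35 to 0.02, edgeR adjusted p = 0.197).

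MiR-877-5p had 63, 67 and 40 counts in the PANC-1 controls and 35, 22 and 45 after knockdown, or 13.9, 12.6 and 10.3 CPM and then 9.11, 5.78 and 9.91 CPM. Every knockdown value in CPM was below every control value (LFC -0.56, SE 0.23, edgeR adjusted p = 0.0734). Without control library 3 it passed the threshold (LFC -0.67, edgeR adjusted p = 0.0368), and without knockdown library 2 its LFC was -0.37 (adjusted p = 0.296). MiR-877-3p averaged 3.75 ± 0.506 and 2.84 ± 1.38 CPM, with overlap (LFC -0.41, 95% interval -1.12 to 0.31, edgeR adjusted p = 0.418). The 5p arm made up 76.8%, 79.8% and 72.7% of the miR-877 counts in the controls and 67.3%, 73.3% and 83.3% after knockdown, with overlap. MiR-1226-3p averaged 2.21 ± 0.290 and 2.72 ± 1.32 CPM and did not reach the count minimum. With every miRNA kept its LFC was 0.29 (SE 0.39, edgeR adjusted p = 0.722 over 1521 miRNAs).

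These PANC-1 values depended on the scaling. With total counts in place of TMM factors, which moved the median LFC of all miRNAs by -0.15, miR-320a (LFC -0.27, edgeR adjusted p = 0.0286), miR-484 (LFC -0.30, adjusted p = 0.0391) and miR-877-5p (LFC -0.71, adjusted p = 0.0301) passed. In that setting the calls over all miRNAs were 26 higher and 117 lower, compared with 70 higher and 51 lower with TMM factors.

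**Figure D3:**
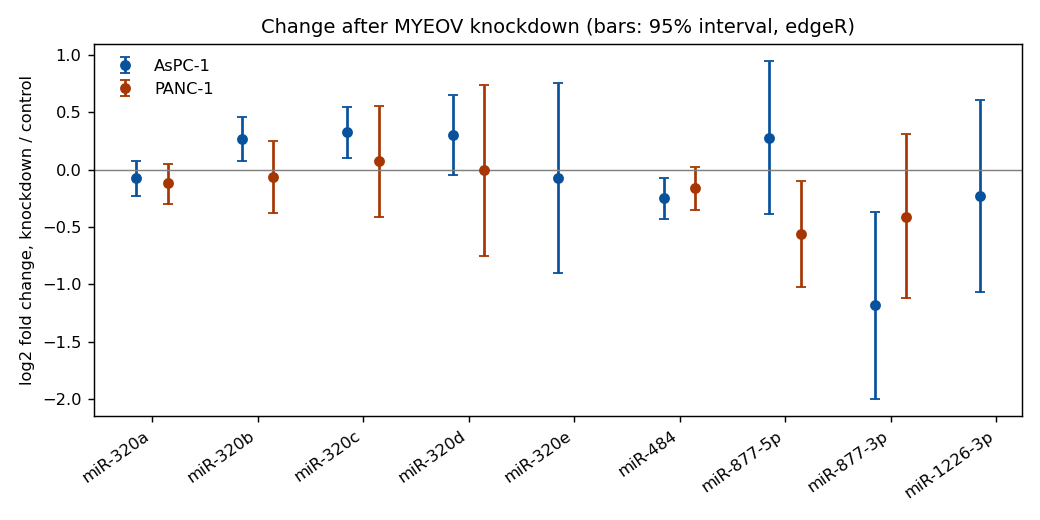
LFC of knockdown over control with its 95% interval (edgeR, TMM scaling) for the miRNAs tested in each line. In AsPC-1 the intervals of miR-320b, miR-320c, miR-484 and miR-877-3p leave out 0 and in PANC-1 that of miR-877-5p does, before adjustment over all miRNAs.

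The difference of the knockdown effect between the lines was then tested for each miRNA in 1 fit over all 12 libraries. None of the 9 passed in edgeR or DESeq2, and in edgeR 2 of 650 miRNAs did (0.308%). That count over all miRNAs rested on single libraries, being 25 of 665 without AsPC-1 control library 1, 20 of 667 without AsPC-1 control library 2 and 13 of 678 without PANC-1 control library 3, with none of the 9 in each case. At an unadjusted p under 0.05 none of the 9 passed either. The AsPC-1 effect of miR-877-5p exceeded that in PANC-1 by 0.74 on the log2 scale (95% interval -0.05 to 1.54, edgeR adjusted p = 0.496). For miR-877-3p the difference was -0.88 (95% interval -1.98 to 0.21, edgeR adjusted p = 0.568), and it was -0.38 without PANC-1 knockdown library 1. For miR-320b it was 0.23 (95% interval -0.13 to 0.59) and for miR-484 it was -0.19 (95% interval -0.47 to 0.10), both with an edgeR adjusted p of 0.646. These differences depended on the scaling, and their median over all 650 miRNAs was -0.12. With DESeq2 size factors that median was 0.04, and the difference was 0.40 for miR-320b and -0.02 for miR-484. Thus no knockdown effect among the 9 was shown to differ between the lines.

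**Figure D4:**
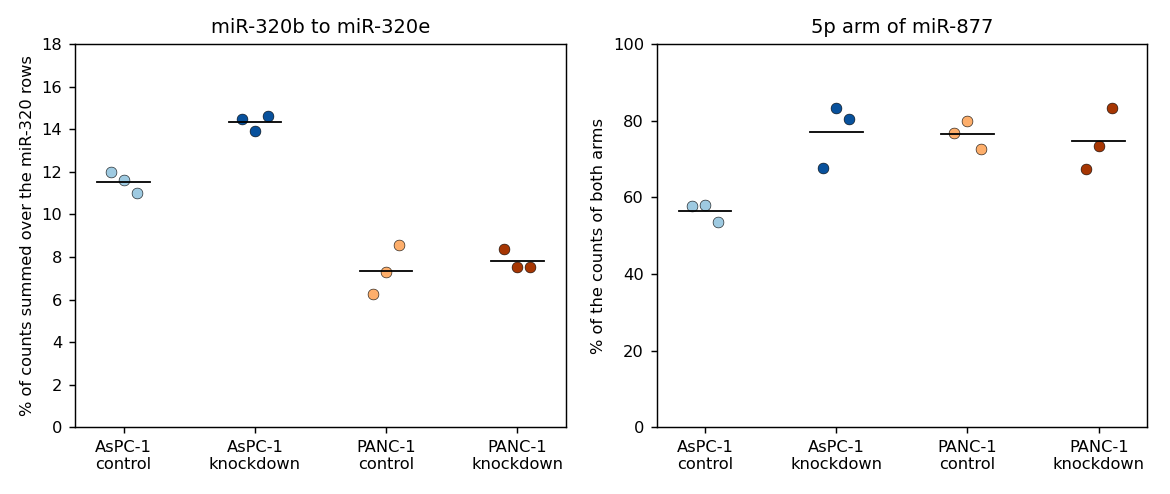
Left, the percentage of all miR-320 counts that belong to miR-320b, miR-320c, miR-320d and miR-320e, and right, the percentage of miR-877 counts in the 5p arm, per library with the mean as a bar. In AsPC-1 both shares lie higher after knockdown without overlap, 14.3% against 11.5% and 77.1% against 56.4%, and in PANC-1 the groups overlap.

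Other miRNAs that are held to bypass DROSHA gave little to compare. A list of other proposed mirtrons held miR-1224, miR-1225, miR-1227, miR-1228, miR-1229, miR-1233, miR-1234, miR-1236, miR-1237, miR-1238 and the 5p arm of miR-1226. Of these, 13 rows had a count, none reached the count minimum in any comparison and the highest count was 10, for miR-1229-3p. The 5p arm of miR-1226 reached at most 5 counts in a library, against 6 to 24 counts for the 3p arm. Of the miRNAs cut from small nucleolar RNAs, 7 rows had a count and 2 were tested in each line. Both, miR-664a-3p (LFC 0.36, SE 0.14, edgeR adjusted p = 0.0286) and miR-664b-3p (LFC 1.13, SE 0.31, adjusted p = 0.00382), were higher in the AsPC-1 controls with TMM factors. Scaled by total counts, miR-664a-3p averaged 30.0 ± 2.46 CPM in the AsPC-1 and 29.6 ± 1.55 CPM in the PANC-1 controls (SD, n = 3), so that its difference rests on the scaling. Neither passed after knockdown. MiR-664a-3p, at 29.0 CPM on average, had an LFC of 0.16 in AsPC-1 (edgeR adjusted p = 0.439) and of -0.20 in PANC-1 (adjusted p = 0.353).

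After the mean of its line was taken from each library, the log2 levels most like those of miR-320a over the 12 libraries were those of miR-1307-5p (r = 0.948), miR-185-5p (r = 0.947) and miR-103a-3p (r = 0.942), of 641 miRNAs compared. For miR-484 they were miR-874-3p (r = 0.881), miR-301a-5p (r = 0.874) and miR-26b-3p (r = 0.873). These values describe libraries that share their line, treatment and scaling factor.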

How the data were processed

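Small RNA libraries of AsPC-1 and PANC-1, 3 control and 3 MYEOV-knockdown libraries per line, were grouped by their labels. The authors trimmed the adapter, mapped reads to hg19 with Bowtie (per the submitters' processing notes) and deposited raw counts per mature miRNA, without normalization. A count holds the most abundant sequence at a miRNA's 5′ end and reads with the same start, so reads with another start are not in it. Neither the version of Bowtie nor the annotation release is given in the sources used here. The labels and the methods differ in harvest time, instrument and description of the controls, and the labels were followed.

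A miRNA that a library did not list was given 0. Counts were tested with edgeR 4.0.16 in R 4.3.3 (TMM factors, filterByExpr with a minimum count of 10, quasi-likelihood F test, group as the only term), within each line, between the control libraries of the lines, and for the interaction over 12 libraries. P-values were adjusted by Benjamini-Hochberg over all miRNAs tested, with 0.05 as the threshold, and the procedure was tested on simulated data. Shares used raw counts, and likeness used log2(CPM + 0.5). Alternatives were other scaling, other filters, DESeq2 1.42.0, the replicate number as a block and leaving out each library. The members and lists were chosen with earlier results of these data known. All members are named, with miRNAs of the same seed, rows of the 2 comparison lists that passed after knockdown or averaged above 10 CPM, and the 3 miRNAs most like miR-320a and miR-484. MiR-664b-3p, miR-1229-3p and the 5p arm of miR-1226 were named after their values were seen. Total counts were 6463528 to 7311783 (AsPC-1 control), 5587106 to 5934261 (AsPC-1 knockdown), 3805084 to 5049361 (PANC-1 control) and 3928990 to 4931799 (PANC-1 knockdown).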

Additional observations from a re-analysis of the deposited data

How the results depend on the processing

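Direction and call of miR-320a to miR-320d and miR-484 between the lines held under every alternative run. The summed miR-320 level was 2.87 higher in AsPC-1 on the log2 scale with TMM factors and 2.39 with total counts, and after knockdown in PANC-1 it changed by -0.12 and -0.26. The number of the 9 that passed after knockdown in AsPC-1, 0 as reported, was 2 with upper-quartile factors (11.2% of all miRNAs passed), 1 with total counts (11.8%), 1 with no filter (5.15%), 2 with at least 10 counts in every library (13.6%), 1 with DESeq2 (4.47%), 2 in 1 fit over 12 libraries (10.8%), 4 at an adjusted p under 0.1 (added after seeing the data), and 0 to 4 with 1 library left out. In PANC-1 it was 3 with total counts (26.0%), 1 at an adjusted p under 0.1 and 0 to 1 with 1 library left out. The AsPC-1 shares with no filter and with DESeq2 are of 1455 miRNAs, since no count minimum was applied there, and are not on the same base as the others. Over all miRNAs in AsPC-1, 102 passed without control library 1 and 24 without knockdown library 1, against 57. The cause of these differences was not tested.

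Small values turned sign. In PANC-1, miR-320d was 0.04 with upper-quartile factors and miR-320c -0.07 with total counts. Between the lines, miR-877-3p was -0.13 with total counts and -0.52 in the knockdown libraries. The interaction of miR-320a was 0.11 with DESeq2 size factors, 0.18 with total counts, 0.09 with at least 10 counts in every library and 0.13 with DESeq2's test, and that of miR-484 was 0.04 with total counts. With 1 library left out, the AsPC-1 LFC ranged from -0.35 to 0.18 for miR-320e, -0.53 to 0.08 for miR-1226-3p and -0.08 to 0.51 for miR-877-5p, the PANC-1 LFC from -0.16 to 0.03 for miR-320b, -0.12 to 0.25 for miR-320c and -0.17 to 0.16 for miR-320d, and the interaction from -0.11 to 0.03 for miR-320a, -0.02 to 0.33 for miR-320c and -0.16 to 0.38 for miR-320e. Without changing sign, the PANC-1 LFC ranged from -0.26 to -0.09 for miR-484 and -0.86 to -0.18 for miR-877-3p, and the interaction from 0.03 to 0.45 for miR-320d, -0.24 to -0.05 for miR-484, 0.40 to 1.03 for miR-877-5p, -1.17 to -0.38 for miR-877-3p and -0.93 to -0.18 for miR-1226-3p.

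Deviations of same-numbered libraries correlated by -0.155, -0.121 and 0.128 in AsPC-1 and by 0.0509, 0.0290 and 0.139 in PANC-1, so the numbers were not taken to pair them. With the replicate block, 0 of the 9 passed in AsPC-1, in PANC-1 and in the interaction, and 29 of 498, 153 of 551 and 2 of 650 miRNAs passed in all. Depth limits miR-320e and the mirtron arms, which had 1 to 67 counts per library.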
